A study of Cavia porcellus with 72 samples.

Results

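CNR1, DAGLA, DAGLB, MGLL, FAAH, NAPEPLD, ABHD6 and ABHD12 are the receptor and the lipid enzymes of the brain's endocannabinoid system, and their mRNA was followed in the hippocampus of juvenile female guinea pigs over 3 generations. The 8 genes were taken by symbol, ignoring letter case, and all 8 are present in each of the 3 count tables, which hold 11651 genes in F1, 11716 in F2 and 11663 in F3. The genes were chosen with earlier results of these same libraries known. The differences below, between sGC and control and between control libraries, are therefore a description of the genes that were picked. All 8 passed the filter on low counts in every generation.

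Endocannabinoids are lipid messengers that a postsynaptic neuron makes on demand and that travel backwards across the synapse. There they bind the CB1 receptor, the product of CNR1, on the axon terminal and lower the release of GABA or glutamate. The receptor is abundant on hippocampal interneurons that make cholecystokinin, and at lower levels on glutamatergic axons and on astrocytes. Diacylglycerol lipases make arachidonoylglycerol, NAPEPLD is one route to anandamide, and a set of hydrolases that differ in their cell type and site in the cell break both lipids down.

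The founders (F0), pregnant guinea pigs of the Dunkin-Hartley strain, were given saline vehicle (control) or the synthetic glucocorticoid betamethasone (sGC) at 1 mg/kg. Dosing came as 3 courses, the first on gestational day 40 and the last ending on day 61. F1 animals were exposed in the womb, and F2 and F3 descended from them through the paternal line with no further dosing. Hippocampi were collected from female offspring on postnatal day 40. RNA-seq covered 6 control and 5 sGC animals in F1, 6 and 6 in F2, and 6 and 7 in F3, 36 libraries in all, with between 13507449 and 19767033 reads counted per library. Per the study's methods each female came from a different mother, and the labels do not name the mothers.

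Hippocampal markers were present in all 36 libraries. PROX1, a transcription factor of dentate granule cells, lay between 85.9 and 142.6 CPM (read counts scaled to a common library size), and NEUROD6 of pyramidal neurons between 101 and 170.6 CPM. KL, a gene of the choroid plexus, lay between 12.2 and 29.4 CPM. The F2 libraries stood apart from the rest. On the first principal component of all genes, which held 66.3% of the variance, F2 libraries lay between 38.3 and 41.4 and F1 and F3 libraries between -22.0 and -17.8. Each library title ends in a number whose meaning the labels do not give. These numbers mostly follow the generations, and generation, breeding cohort and whatever the numbers stand for cannot be told apart. In addition, 5 sGC libraries (F1 replicates 4 and 5, F2 replicate 6, F3 replicates 5 and 6) are numbered 32 to 36, out of sequence for their generation, while no control library is.

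Levels are given as CPM scaled by TMM over all 36 libraries. Gene lengths were not used, so the level of one gene is not compared with that of another. Differences are log2 fold changes with their standard error (SE) from edgeR's quasi-likelihood test, fitted over all genes of a generation, with p-values adjusted by the Benjamini-Hochberg method. Hippocampus is a mixed tissue, and fewer cells of a type and less mRNA per cell cannot be told apart in these samples. The library kit did not mark strand, so reads of an overlapping antisense transcript would count as the gene.

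CNR1, the receptor, had its lowest mean in F1 control animals and its highest in F2. In F1 control libraries CNR1 lay between 152 and 197 CPM with a median of 169 (mean 172 ± 17.5, SD, n = 6). The 5 F1 sGC libraries held 216, 234, 242, 178 and 211 CPM (216.0 ± 25.02, n = 5). Thus 4 of the 5 sGC libraries stood above every control library, and replicate 4 lay inside the control range. The log2 fold change was 0.32 ± 0.082 (SE), about 25.2% higher, with an adjusted p of 0.0585 in edgeR's quasi-likelihood test.

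In F2 the groups lay on top of each other. F2 control libraries ran from 217 to 234 CPM with a median of 224 (224 ± 6.39, n = 6), and F2 sGC libraries from 212 to 233 with a median of 223 (223 ± 8.65, n = 6). The log2 fold change was -0.0064, with a 95% interval from -0.069 to 0.056 and an adjusted p of 0.980 in edgeR's quasi-likelihood test.

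In F3 the difference pointed the other way. F3 control libraries lay between 167 and 211 CPM with a median of 199 (SD 16.6, n = 6), and F3 sGC libraries between 149.5 and 199.9 with a median of 174 (175.2 ± 17.6, n = 7). Of the 7 sGC libraries, 6 lay below the control mean and 2 below every control library. The log2 fold change was -0.16 ± 0.064, with an adjusted p of 0.157 in edgeR's quasi-likelihood test.

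**Figure D1:**
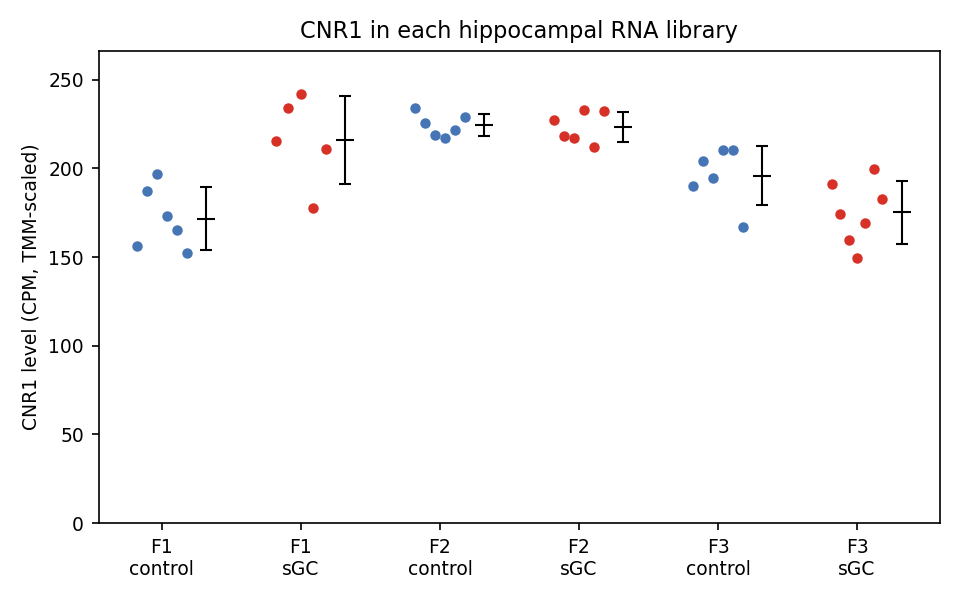
CNR1 level in CPM (vertical axis, from 0) in each of the 36 libraries, grouped by generation and treatment (blue control, red sGC), with the mean and SD of each group in black. The mean is 172 in control and 216.0 in sGC in F1, 224 and 223 in F2, and 175.2 in F3 sGC, below that of F3 control, with overlapping ranges in each pair.

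Ordered by mean, CNR1 ran from F1 control (172) through F3 sGC (175.2), F3 control, F1 sGC (216.0) and F2 sGC (223) to F2 control (224). The ranges of every 2 neighbours in this order overlapped. Within F2 the libraries were also closer together for this gene. Its coefficient of variation was 2.85% in F2 control and 3.87% in F2 sGC libraries, against 8.46% to 11.6% in the other 4 groups. Over all 11390 genes tested together, the median coefficient was 6.05% in F2 control, 6.64% in F2 sGC and between 6.42% and 8.79% in the others.

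The sGC effect on CNR1 was then compared between generations, with an interaction fitted over all 36 libraries. Between F3 and F1 it differed by -0.49 ± 0.095 on the log2 scale, with an unadjusted p of 8.22e-06. That was the lowest of all 11390 genes tested, and the adjusted p in edgeR's quasi-likelihood test was 0.0724. No gene passed 0.05 in this comparison (0.0% called), and 13.1% (1490 genes) had an unadjusted p under 0.05. The likelihood ratio test called 58 genes (0.509%) and DESeq2 62 (0.544%), CNR1 among both. Without the 12 F2 libraries in the fit the difference was -0.49 with an adjusted p of 0.204 (edgeR quasi-likelihood). Without the libraries numbered 32 to 36, F1 sGC replicate 4 among them, it was -0.61 with an adjusted p of 0.00141 (edgeR quasi-likelihood). That setting called 431 genes, where the fit over all 36 libraries called 0. Between F2 and F1 the effect differed by -0.34 ± 0.097 (adjusted p = 0.0844, edgeR quasi-likelihood, which called 0.29% of genes), and CNR1 passed there with the likelihood ratio test (1.47% called) and DESeq2 (1.77%). Between F3 and F2 it differed by -0.16 ± 0.093 (adjusted p = 0.637, with 0.0% of genes called and 9.08% at an unadjusted p under 0.05). These comparisons share libraries with each other. They are built from the sGC contrasts known when the genes were chosen, so the rank, p-values and calls of CNR1 here are a description. The same holds for the differences between generations in sGC effects given below.

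The F1 value depended on single libraries. Without sGC replicate 4 the F1 log2 fold change of CNR1 was 0.39 with an adjusted p of 0.0130, and without sGC replicate 3 the adjusted p was 0.117. That replicate 4 also had the highest summed level of 8 astrocyte markers of any F1 or F3 library, 15250 CPM, against 8416 to 10910 in F1 control libraries. Its 9 measured markers of GABAergic neurons summed to 694 CPM, against 797 to 913 in F1 controls. Its glutamatergic markers summed to 10710 CPM, the highest of the 36 libraries, against 7612 to 8657 in F1 controls. CAMK2A, at 4957 to 8439 CPM over the 36 libraries, made up most of such sums. SLC17A7 held 1860 CPM in replicate 4, below the 2006 to 2351 CPM of F1 controls. By sign, 4 of the 6 glutamatergic markers were lower and 2 higher in F1 sGC libraries, with a median log2 fold change of -0.066. The microglial and endothelial sums of replicate 4, 304 and 334 CPM, were the highest of the 36 libraries.

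CNRIP1, which encodes a protein that binds the tail of the CB1 receptor, showed small differences. Its log2 fold change was -0.028 in F1, -0.031 in F2 and -0.079 in F3, with adjusted p-values of 0.824, 0.859 and 0.359 in edgeR's quasi-likelihood test. Set against CNRIP1 within each library, which needs no scaling, the log2 ratio of CNR1 to CNRIP1 reads lay between -2.48 and -2.21 in F1 control and between -2.13 and -1.95 in F1 sGC libraries. These F1 ranges did not overlap, replicate 4 included, as was so for 1.84% of all other genes set against CNRIP1. In replicate 4, CNR1 itself lay inside the control range, and CNRIP1 held 778 CPM against 838 to 911 in F1 controls. Of the 5 F1 sGC libraries, 2 lay above and 2 below every F1 control library in CNRIP1. The ranges of the ratio overlapped in F2, at -2.015 to -1.813 in control and -2.001 to -1.806 in sGC libraries, and in F3, at -2.49 to -2.02 and -2.59 to -1.83. Of the 7 enzymes, none was separated on this scale in F1, none of the 8 members in F2 (0.176% of genes) and MGLL in F3 (3.18%). These ratios come from the contrasts known when the genes were chosen and carry no test.

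Of the 9 measured markers of GABAergic neurons, 8 were lower in F1 and 8 in F3 by sign, with a median log2 fold change of -0.12 in F1 and -0.11 in F3 where that of all genes was -0.0055 and 0.0048. In F2, 5 of the 9 were higher and 4 lower by sign, with a median of 0.036, and none passed the test. In F3, GAD1 and GAD2, which make GABA, fell by 0.24 and 0.20 on the log2 scale (adjusted p = 0.0183 and 0.0116, edgeR quasi-likelihood). They were the 2 of the 9 called in F3, where 5.04% of all genes were. CCK, the peptide of the interneurons richest in CB1, fell by 0.23 in F1 (adjusted p = 0.0399), where CNR1 was higher. It was the 1 of the 9 called in F1, where 2.08% of all genes were. CCK stood at 0.15 in F2 (adjusted p = 0.711) and at 0.053 in F3 (adjusted p = 0.770), in the same test. The summed markers ran from 795 to 902 CPM in F3 control and from 712 to 819 in F3 sGC libraries, with none of the 9 at 0. Relative to GAD1 reads in the same library, the log2 ratio of CNR1 averaged -0.59 ± 0.14 in F3 control and -0.50 ± 0.070 in F3 sGC libraries (SD, n = 6 and 7). The higher F3 sGC mean follows from the 2 F3 falls already given, 0.24 for GAD1 and 0.16 for CNR1. In F1 the CNR1 to GAD1 ratio averaged -0.70 ± 0.17 in control and -0.35 ± 0.15 in sGC libraries (n = 6 and 5). These ratios come from the contrasts known when the genes were chosen, carry no test and have no share of other genes beside them. The part of these markers in the CNR1 values was not tested.

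Among the 8 genes, edgeR's quasi-likelihood test called none between sGC and control in F1 (background 2.08% of 11377 genes), none in F2 (0.0% of 11414) and none in F3 (5.04% of 11359). At an unadjusted p under 0.05 there were 2 of 8 in F1 (CNR1 and ABHD12; 19.6% of all genes), 2 in F2 (DAGLA and DAGLB; 6.64%, or 758 genes) and 5 in F3 (CNR1, DAGLB, MGLL, ABHD6 and ABHD12; 21.1%). The likelihood ratio test, the method the study's methods name, called CNR1 in F1 (5.26% of all genes) and MGLL in F3 (6.94%). DESeq2 called CNR1 in F1 (5.78%), and MGLL and ABHD12 in F3 (8.25%). In F2 both called none of the 8 (0.0526% and 0.0876%). The values of no member were fully separated between sGC and control in any generation, where 4.31% of genes were in F1, 0.378% in F2 and 2.58% in F3. Since these contrasts were known when the genes were chosen, nothing is read from the counts.

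**Figure D2:**
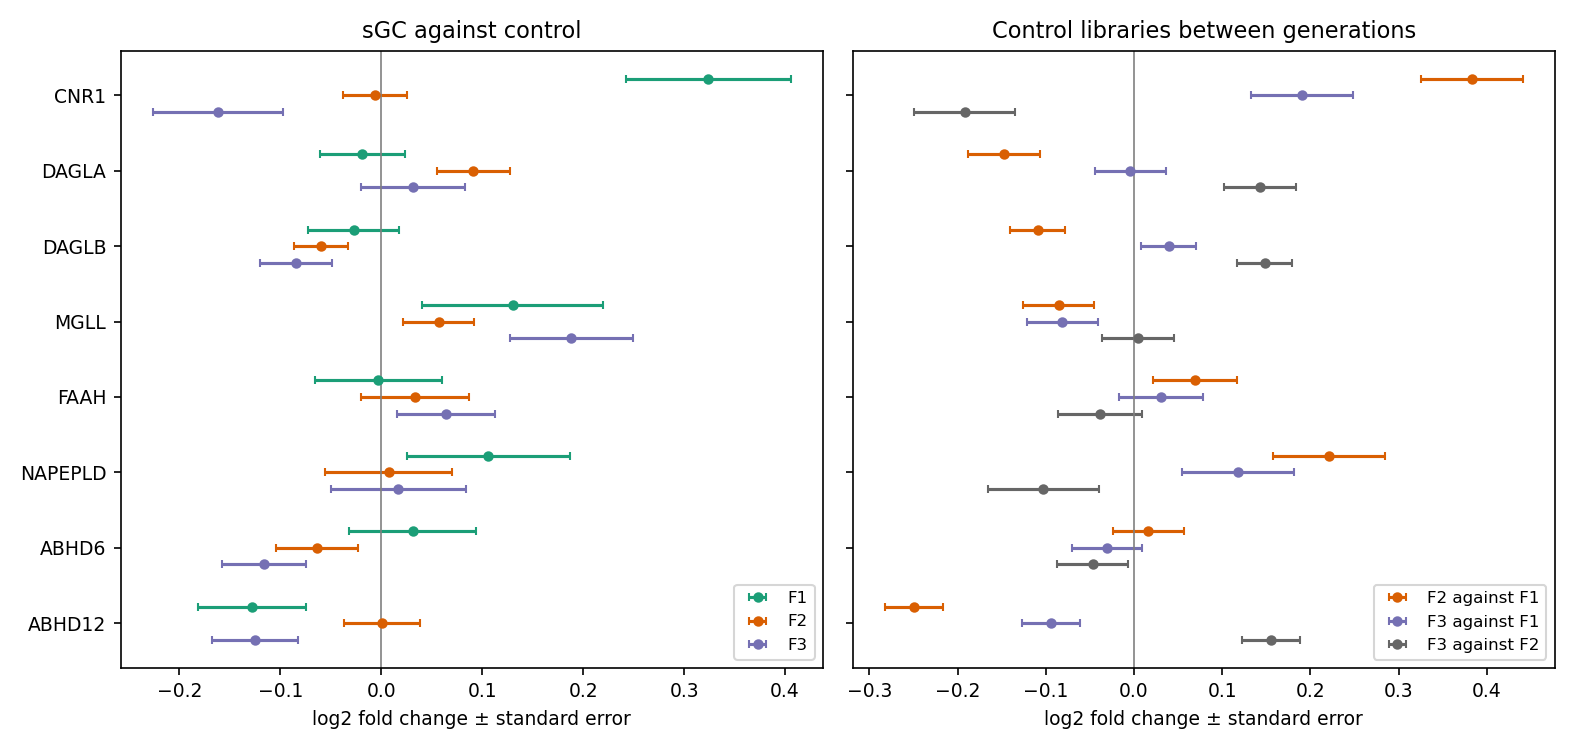
Log2 fold change with its standard error (horizontal axis) for each of the 8 genes (vertical axis), for sGC against control in F1, F2 and F3 (left) and for control libraries of one generation against another (right). On the left CNR1 lies at 0.32 in F1 and -0.16 in F3 and MGLL at 0.13, 0.057 and 0.19; on the right CNR1 and ABHD12 lie farthest from 0 in F2 against F1, at 0.38 and -0.25.

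The enzymes of synthesis come next. DAGLA, the lipase that makes arachidonoylglycerol at neuronal synapses, ran from 214 to 237 CPM in F1 control (median 227) and held 226, 238, 219, 219 and 218 CPM in F1 sGC libraries. In F2 it ran from 190.7 to 214 (median 208) in control and from 204 to 230.0 (median 217) in sGC libraries. In F3 it ran from 213 to 250.1 (median 223) and from 204 to 264 (median 227). Only in F2 did its difference reach an unadjusted p under 0.05 in the quasi-likelihood test, at 0.091 ± 0.0365 on the log2 scale with 4 of 6 sGC libraries above every control, and its adjusted p there was 0.711. The difference was -0.019 in F1 and 0.032 in F3, and the F2 and F1 differences were set against each other without passing (0.10 ± 0.066, adjusted p = 0.446, edgeR quasi-likelihood).

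DAGLB, the paralogue that also acts in glia and macrophages, was lower by sign in all 3 generations. The log2 fold change was -0.027 ± 0.045 in F1, -0.060 ± 0.027 in F2 and -0.085 ± 0.036 in F3, with adjusted p-values of 0.780, 0.734 and 0.185 in edgeR's quasi-likelihood test. In F2, 5 of 6 sGC libraries lay below every control library, with 418 to 459.7 CPM (median 442) against 451 to 473 (median 454). In F3 all 7 sGC libraries lay below the control mean, with 436 to 499 CPM (median 484) against 483 to 537 (median 509).

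NAPEPLD, the phospholipase that releases anandamide from its membrane precursor, had few reads, between 279 and 451 per library. Its mean was 20.5 ± 0.648 CPM in F1 control and 22.2 ± 3.24 in F1 sGC libraries (SD, n = 6 and 5). The 5 sGC values were 22.3, 18.2, 25.4, 25.3 and 19.6, 3 of them above and 1 below every control library. The difference was 0.11 ± 0.081 in F1, 0.0073 ± 0.063 in F2 and 0.017 ± 0.067 in F3 on the log2 scale, with adjusted p-values of 0.488 or more in edgeR's quasi-likelihood test.

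MGLL encodes monoacylglycerol lipase, the main enzyme that clears arachidonoylglycerol in brain, found in axon terminals and in astrocytes. Its mean was higher in sGC libraries in each generation. In F1 the control libraries lay between 419 and 482 CPM (median 446.5), and the sGC libraries held 424, 504, 424, 635 and 473. The highest of these was replicate 4. The F1 log2 fold change was 0.13 ± 0.090 with it and 0.025 without it. In F2 the control libraries ran from 396 to 443 CPM (median 421) and the sGC libraries from 415 to 474 (median 436.5), a log2 fold change of 0.057 ± 0.035.

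The largest of the 3 differences was in F3. Control libraries ran from 389 to 456 CPM with a median of 419 (422 ± 23.1, n = 6), and sGC libraries from 405 to 539 with a median of 495 (481.5 ± 51.1, n = 7). Of the 7 sGC libraries, 4 stood above every control library and 6 above the control mean, and replicate 6 was the exception. The log2 fold change was 0.19 ± 0.061, about 13.9% higher, with an adjusted p of 0.0833 in edgeR's quasi-likelihood test. Without replicate 6 the adjusted p was 0.0177, and without the libraries numbered 32 to 36 it was 0.0478. The difference between the F3 and F1 effects was 0.051 ± 0.099 (adjusted p = 0.872, edgeR quasi-likelihood).

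All 8 astrocyte markers were higher by sign in F3 sGC libraries. Of the 8, SLC1A2, the glial glutamate transporter, and S100B passed the test, where 5.04% of all genes did. These 2 rose by 0.24 and 0.23 on the log2 scale (adjusted p = 0.0201 and 0.0156, edgeR quasi-likelihood). The summed level of the 8 lay between 9249 and 10040 CPM in F3 control and between 10340 and 11710 in F3 sGC libraries, with none of the 8 at 0. Among single genes, 2.58% were separated between the F3 groups. F3 sGC replicate 6, which had the lowest MGLL of its group, had the highest astrocyte sum, 11710 CPM. In F1 none of the 8 astrocyte markers passed the test, all 8 were higher by sign, and the sums ran from 8416 to 10910 in control and from 9576 to 15250 in sGC libraries. In F2 none of the 8 passed and all 8 were again higher by sign. The median log2 fold change of the 8 was 0.24 in F1, 0.040 in F2 and 0.19 in F3. The part of these markers in the MGLL values was not tested.

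FAAH, the amidase that breaks down anandamide, stayed between 21.4 and 28.6 CPM in all 36 libraries. Its difference between sGC and control was -0.0030 ± 0.063 in F1, 0.034 ± 0.053 in F2 and 0.064 ± 0.049 in F3 on the log2 scale, with adjusted p-values between 0.489 and 0.983 in edgeR's quasi-likelihood test. The sign in F1 turned under other scalings, so no direction is given there.

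ABHD6 and ABHD12 are the other hydrolases of arachidonoylglycerol. ABHD6 sits on the inner face of the postsynaptic membrane, and ABHD12, which also clears lysophosphatidylserine, is prominent in microglia. ABHD6 lay between 107 and 123 CPM in F3 control (median 110.5) and between 94.0 and 109.8 in F3 sGC libraries (median 106.5), and 5 of the 7 sGC libraries were below every control library. ABHD12 lay between 317 and 358 CPM in F3 control (median 336) and between 279 and 329.5 in F3 sGC libraries (median 317), and 3 of 7 were below every control. All 7 sGC libraries were below the control mean for both genes. The F3 log2 fold change was -0.12 ± 0.042 for ABHD6 and -0.13 ± 0.043 for ABHD12, with adjusted p-values of 0.118 and 0.0991 in edgeR's quasi-likelihood test.

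In F1 the differences of the pair had opposite signs. ABHD12 held 317, 359, 340.5, 289.9 and 346 CPM in sGC libraries against 345 to 374 in control libraries (median 359), a log2 fold change of -0.13 ± 0.053 (adjusted p = 0.205, edgeR quasi-likelihood). ABHD6 held 118, 121, 130, 97.2 and 127 CPM against 109 to 121 (median 114), a log2 fold change of 0.031 ± 0.063. In F2, ABHD6 lay between 108.5 and 125.1 CPM in control and between 101.9 and 118 in sGC libraries, and ABHD12 between 283 and 319 and between 278 and 326. Their F2 differences were -0.063 ± 0.040 and 0.00070 ± 0.037.

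**Figure D3:**
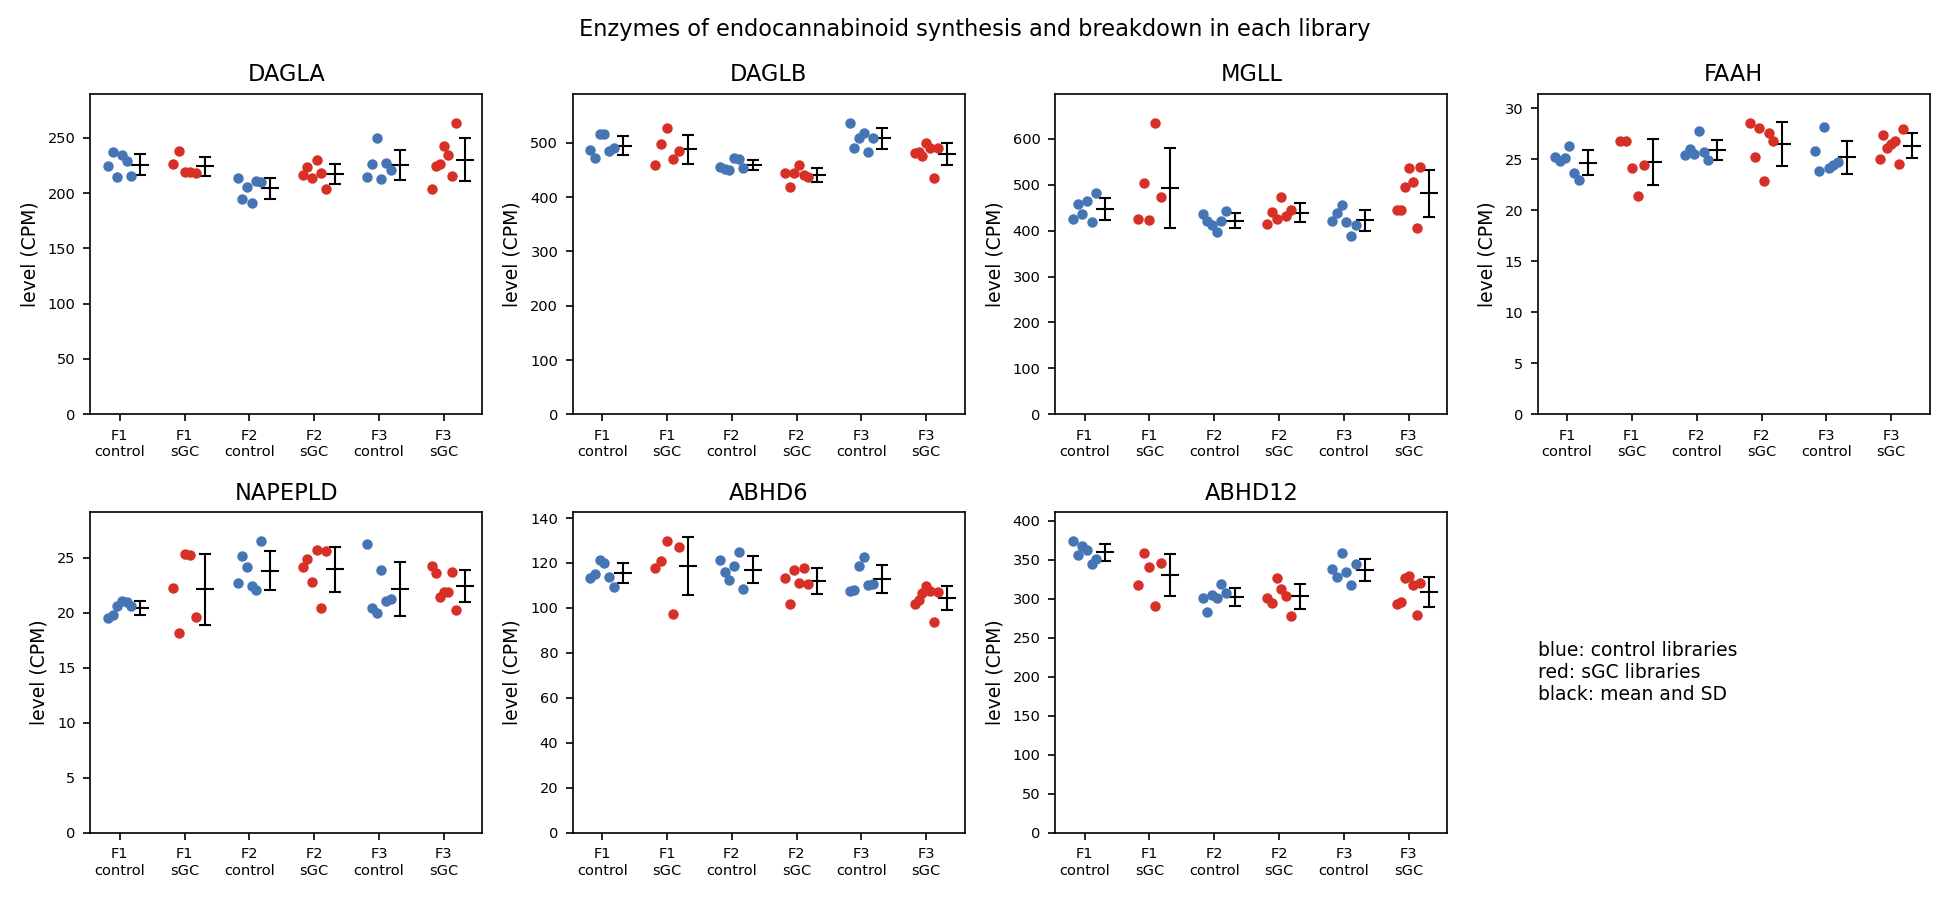
Level in CPM (vertical axes, each from 0) of the 7 enzyme genes in each of the 36 libraries, by generation and treatment, with the mean and SD in black. The 7 F3 sGC libraries of ABHD6, ABHD12 and DAGLB all lie below the control mean of 113, 336 and 508 CPM, and MGLL shows 1 F1 sGC library at 635 CPM.

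The balance between MGLL and the other enzymes was read as the log2 ratio of their reads within each library, a measure that no scaling between libraries can change. In F3, 3 of the 7 other members had ratios to MGLL that did not overlap between sGC and control and were lower in sGC, where 4.65% of all other genes were (4.66%, or 531 genes, in either direction). For ABHD12 the ratio lay between -0.42 and -0.26 in control and between -0.75 and -0.54 in sGC libraries. For ABHD6 it lay between -2.02 and -1.77 in control and between -2.33 and -2.10 in sGC libraries. For DAGLB it lay between 0.16 and 0.36 in control and between -0.14 and 0.12 in sGC libraries. F3 sGC replicate 6, low in MGLL, was low in these 3 genes as well, with 94.0 CPM of ABHD6, 279 of ABHD12 and 436 of DAGLB, each the lowest of its group. In F1 and F2 none of the ratios to MGLL was separated between groups (0.975% and 0.246% of all other genes were). The ratios use the same F3 contrast as the choice of genes and carry no test.

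**Figure D4:**
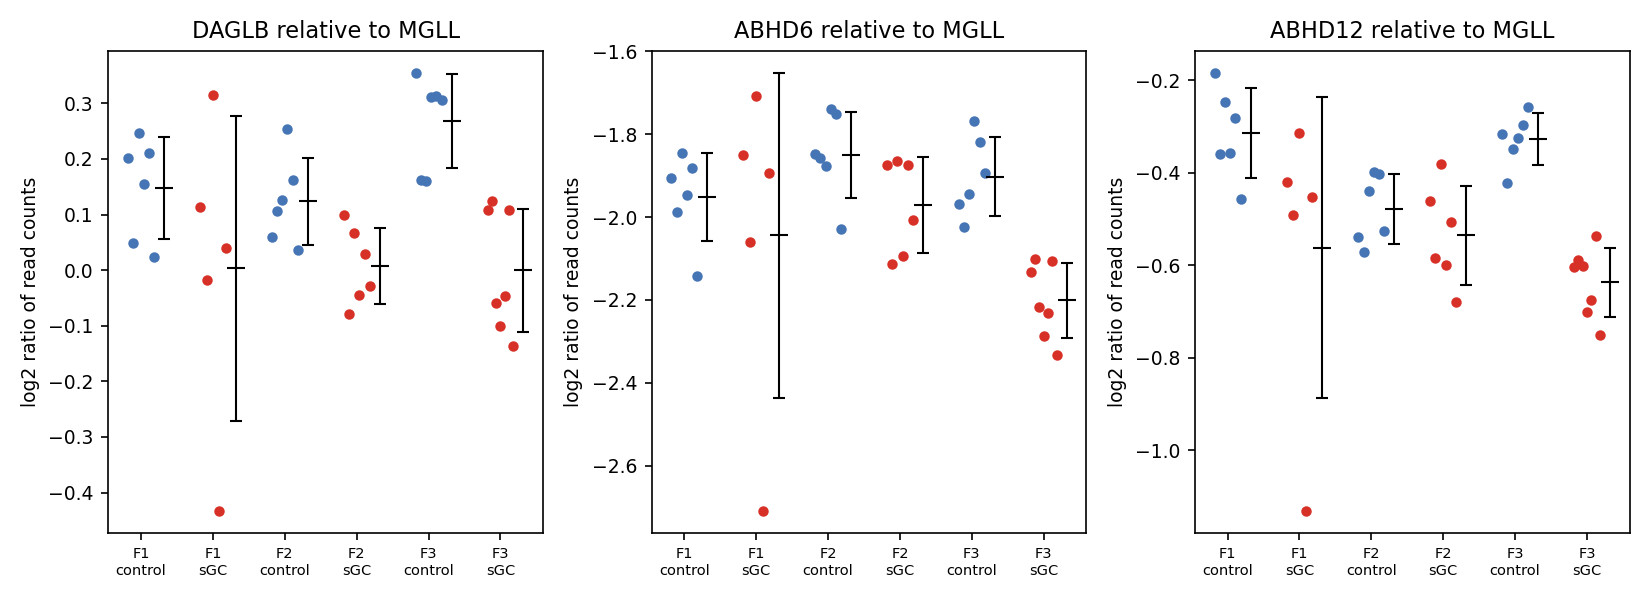
Log2 ratio of the reads of DAGLB, ABHD6 and ABHD12 to the reads of MGLL in the same library (vertical axes), by generation and treatment, with mean and SD in black. In F3 the sGC libraries lie below all control libraries in each panel; in F1 replicate 4 of the sGC group lies far below the others.

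Between generations, control libraries alone were compared, which the sGC exposure does not enter. The same control libraries are the reference of the sGC comparisons above, so the 2 kinds of comparison are not independent. Levels in control libraries may also have been known when the genes were chosen, so the p-values and calls here are likewise a description. From F1 to F2, 5 of the 8 genes passed edgeR's quasi-likelihood test after adjustment, where 47.1% of 11311 genes did. CNR1 rose by 0.38 ± 0.058 on the log2 scale (30.4% higher, adjusted p = 9.52e-06) and NAPEPLD rose by 0.22 ± 0.064 (adjusted p = 0.00643). ABHD12 fell by 0.25 (SE 0.033, adjusted p = 1.67e-06), DAGLA fell by 0.15 (SE 0.041, adjusted p = 0.00466) and DAGLB fell by 0.11 (SE 0.031, adjusted p = 0.00586). The values of all 5 were separated between F1 and F2 controls, as were those of 27.1% of genes.

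The other 3 genes did not pass. MGLL stood at -0.086 ± 0.040 (adjusted p = 0.0874, edgeR quasi-likelihood), FAAH at 0.069 ± 0.048 and ABHD6 at 0.016 ± 0.040. In the case of ABHD6 the 95% interval ran from -0.062 to 0.094.

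From F2 to F3, 4 of the 8 passed, where 40.0% of genes did. CNR1 fell by 0.19 (SE 0.058, adjusted p = 0.0105), while ABHD12 rose by 0.16 ± 0.033 (adjusted p = 0.000653), DAGLB by 0.15 ± 0.031 (adjusted p = 0.000503) and DAGLA by 0.14 ± 0.041 (adjusted p = 0.00709), all in edgeR's quasi-likelihood test. Between F1 and F3 controls none of the 8 passed (0.0177% of genes did). At an unadjusted p under 0.05 there were 2 of 8, CNR1 and ABHD12, beside 8.95% of genes (1012). CNR1 was 0.19 ± 0.058 higher in F3 than in F1 controls (adjusted p = 0.343, edgeR quasi-likelihood), and the likelihood ratio test and DESeq2 also called none of the 8 there (0.0884% and 0.106% of genes). With 8 genes, none of these counts is read as more than the background. Some markers moved with generation too: SLC17A7, the vesicular glutamate transporter of hippocampal principal cells, lay between 1164 and 1286 CPM in F2 control and between 2006 and 2351 in F1 control libraries. Of the 6 glutamatergic markers, 2 passed from F1 to F2 controls, SLC17A7 and NEUROD2, both lower, where 47.1% of all genes passed. By sign, 2 of the 6 were higher and 4 lower, with a median log2 fold change of -0.051. The part of these markers in the members' values was not tested.

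A wider list of 30 genes around the same pathway (other receptors, other enzymes, lipid carriers and G proteins) had 23 genes tested in every generation. In F1, 2 of the 23 were higher in sGC animals and none lower, in F2 none passed, and in F3, 1 was higher and 1 lower. The shares over all genes were 2.08%, 0.0% and 5.04%, so the 2 of 23 in F3 lay close to the background, and the list was chosen with earlier results known. The median log2 fold change of the list was 0.036 in F1, -0.011 in F2 and 0.034 in F3, beside -0.0055, -0.00041 and 0.0048 for all genes.

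The genes that rose in F1 were GRM5 and GNAQ, both from the 6 listed receptors and G proteins upstream of phospholipase C, of which 4 were higher and 2 lower by sign with a median log2 fold change of 0.093. GRM5, the group I metabotropic glutamate receptor, held 81.7, 78.9, 80.5, 66.1 and 76.6 CPM in F1 sGC and 50.6 to 62.8 in F1 control libraries. GNAQ, the G protein that couples it to phospholipase C, held 78.0, 73.9, 77.9, 68.3 and 69.2 CPM against 52.8 to 63.4. All 5 sGC libraries stood above every control library for both genes, in a generation where 4.31% of all genes were separated between groups. The log2 fold changes were 0.42 ± 0.069 for GRM5 and 0.32 ± 0.058 for GNAQ, with adjusted p-values of 0.0102 and 0.0181 in edgeR's quasi-likelihood test. PLCB1, the phospholipase C that follows in this route, stood at 0.17 ± 0.054 (adjusted p = 0.1004), and CHRM1, CHRM3 and GNA11 did not pass.

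In F2 the differences were -0.011 for GRM5 and -0.022 for GNAQ, and in F3 0.057 and 0.034. The F1 and F2 effects on GNAQ differed by -0.35 ± 0.069 (adjusted p = 0.0270, edgeR quasi-likelihood), and those on GRM5 by -0.44 ± 0.11 (adjusted p = 0.0502). In control libraries from F1 to F2, GRM5 rose by 0.66 and GNAQ by 0.41 (adjusted p = 1.28e-07 and 2.32e-07), and CNR1 had the same sign in both comparisons, which share the F1 control libraries. Of the 23 wider genes 11 passed from F1 to F2 controls, 6 higher and 5 lower, about the 47.1% of all genes that did so. CHRM3 was among the higher genes, and CHRM1 and GNA11 among the lower.

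In F3, GDPD1, an enzyme of the alternative route to anandamide, fell by 0.14 (SE 0.034, adjusted p = 0.0273, edgeR quasi-likelihood). It lay between 88.1 and 100.01 CPM in control and between 84.6 and 88.5 in sGC libraries. GNAI2, a Gi protein of the class that the CB1 receptor couples to, rose by 0.13 ± 0.030 (adjusted p = 0.0222, edgeR quasi-likelihood). It held 178 to 198 CPM in control and 203.5 to 215 in sGC libraries, ranges that did not overlap, as for 2.58% of all genes in F3. Leaving out any of 7 single libraries brought the adjusted p of GDPD1 above 0.05, to as much as 0.0619 without control replicate 4, and leaving out sGC replicate 5 brought that of GNAI2 to 0.0550, and without the libraries numbered 32 to 36 it was 0.0772 and 0.0635. PPARA, the nuclear receptor for the acylethanolamides that NAPEPLD also makes, stood at 0.20 ± 0.067 in F3 (adjusted p = 0.0973) and did not pass in any generation.

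How the 8 genes vary among animals of one group was read from the deviations of log2 CPM from the mean of each generation and treatment, over 36 libraries and 28 pairs of genes. The p-values come from 100000 permutations within groups, are two-sided and are adjusted over the 28 pairs. The 3 largest coefficients of the 28 pairs were those among DAGLB, ABHD6 and ABHD12. Pearson's r was 0.67 (rho 0.60) for ABHD6 with ABHD12, with adjusted permutation p-values of 0.00868 and 0.00588. For DAGLB it was 0.60 (rho 0.61) with ABHD6 (adjusted permutation p = 0.0108 and 0.00588) and 0.58 (rho 0.58) with ABHD12 (0.0132 and 0.00635). Within F1, F2 and F3 these 3 coefficients lay between 0.36 and 0.81, and without the 2 farthest libraries they were 0.49, 0.49 and 0.51. Libraries of one animal share depth and tissue composition, which both members of a pair read. How often pairs of other genes reach such coefficients was not measured, so the values are not read as particular to these genes.

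Weaker pairs were FAAH with ABHD6 (r = 0.53, rho 0.47), DAGLA with ABHD12 (r = 0.48, rho 0.45) and NAPEPLD with ABHD12 (r = -0.51, rho -0.48). All 3 had adjusted permutation p-values between 0.0360 and 0.0450 for both coefficients. Without the 2 farthest libraries they were 0.43, 0.45 and -0.50. Within generations they ran from 0.42 to 0.65, from 0.22 to 0.63 and from -0.68 to -0.37.

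No pair with CNR1 passed for both coefficients. The largest was CNR1 with MGLL at r = -0.46 (rho -0.19, adjusted permutation p = 0.0898 and 0.582), which was -0.57 in F1, 0.65 in F2 and -0.51 in F3 and -0.21 without the libraries numbered 32 to 36. CNR1 with ABHD12 was 0.62 in F1 and -0.74 in F3, and MGLL with ABHD12 was -0.52 in F1 and 0.89 in F3, so that the signs differed between generations. The difference of these coefficients between generations was not tested.

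**Figure D5:**
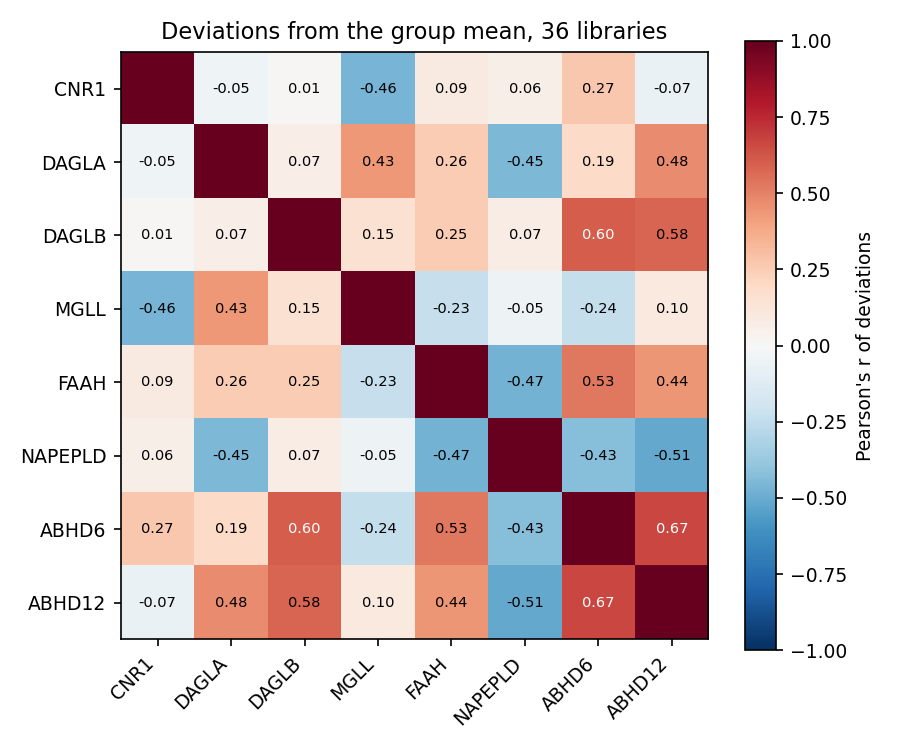
Pearson's r between the 8 genes (both axes) of the deviations of log2 CPM from the group mean over 36 libraries, from blue (-1) to red (1). The block of DAGLB, ABHD6 and ABHD12 holds values of 0.58 to 0.67, and NAPEPLD is negative with DAGLA, FAAH, ABHD6 and ABHD12.

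The genes whose deviations were most like those of CNR1, out of 11160 ranked over the 36 libraries, were ZYG11B (r = 0.86), CHL1 (0.85), SLC24A2 (0.85), PAFAH1B1 (0.84) and SLC4A10 (0.84). These points share depth and tissue composition and carry no test. CHL1 is a neural cell adhesion molecule, SLC24A2 a neuronal sodium, calcium and potassium exchanger, PAFAH1B1 the lissencephaly protein that regulates dynein, and SLC4A10 a bicarbonate transporter of neurons. Within F1 and F3 the coefficients of these 5 lay between 0.83 and 0.93, and within F2, where CNR1 varied least, they were 0.45, 0.56, 0.47, -0.017 and 0.15. Among these 5, only SLC24A2 passed the test between sGC and control, in F1 (0.37 ± 0.090, adjusted p = 0.0497, edgeR quasi-likelihood). CNRIP1 ranked 4588th with r = 0.066, and among the enzymes ABHD6 ranked highest, at 2208 with r = 0.27. Within F1, F2 and F3 the coefficients were 0.77, 0.019 and -0.59 for CNRIP1 and 0.80, -0.14 and -0.34 for ABHD6. The signs thus differed between generations, a difference that was not tested.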

How the data were processed

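Raw counts of reads, one value for each gene in each library, were deposited by the authors for 36 hippocampal RNA libraries. Reads were 51 bp, and TopHat2 and edgeR are named in the submitters' processing notes. The counting tool is not given in the sources used here. The deposited tables also hold the authors' own edgeR comparison, and the 6 methylation tables hold only their differences and q-values per site or window (36 samples). Neither was used.

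The fits used edgeR 4.0.16 with limma 3.58.1, and DESeq2 1.42.0 as an alternative, under R 4.3.3. Summaries used Python 3.11.15, numpy 2.4.6, pandas 2.3.3, scipy 1.17.1 and matplotlib 3.10.9. Genes were kept by filterByExpr (11377 in F1, 11414 in F2, 11359 in F3, 11390 over all generations and 11311 in the control fit), scaled by TMM and tested with the quasi-likelihood method of edgeR, adjusting p-values by Benjamini-Hochberg over all genes at a threshold of 0.05. Deviations used a prior count of 0.5. Pairs of libraries of one group differed by a chi-square per degree of freedom of 2.11 to 28.9, so none was a duplicate. The fits were tested on simulated counts.

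The members and lists were chosen with earlier results of these data known. Named were the 8 members, genes of the wider list past the threshold in a generation, CNRIP1 and the 5 genes most like CNR1. PLCB1, PPARA, the genes named in the control comparison and the marker genes were named after their values were seen. Alternatives were the likelihood ratio test, DESeq2, its size factors in edgeR, no filter, a replicate block, single libraries left out, libraries 32 to 36 left out and all generations fitted together. Leaving out F2 was added after the F2 libraries were seen to stand apart.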

Additional observations from a re-analysis of the deposited data

Results flagged for a closer look

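In F3 sGC animals, DAGLB in replicate 6 lay at 436 CPM, far below the nearest of the other 6 libraries at 475 CPM. The gap was 0.633 of the group's range, above the critical value of 0.568 for 7 samples. Of 48 groups checked this was the 1 so marked, and chance marks about 1 in 20.

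The effect of sGC on GNAQ differed between F2 and F1 by -0.35 on the log2 scale, with an adjusted p of 0.0270 in the interaction test of edgeR's quasi-likelihood fit over all 36 libraries. It was 0.0656 without F2 control replicate 2, 0.0551 without F2 control replicate 4 or F2 sGC replicate 4, 0.0542 without F2 sGC replicate 5, and 0.0987 with a replicate block.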

How the results depend on the processing

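No member passed the test between sGC and control in any generation, and this count moved under some settings. In F1 it was 1 (CNR1) with the likelihood ratio test, with DESeq2, without libraries 32 to 36 and with all generations fitted together. In F3 it was 1 (MGLL) with the likelihood ratio test and without libraries 32 to 36, and 2 (MGLL, ABHD12) with DESeq2. For the sGC effect in F2 against F1 and in F3 against F1 it was 1 (CNR1) with the likelihood ratio test, DESeq2 and without libraries 32 to 36. The cause was not tested. Leaving out 1 library gave 0 to 1 members in F1 (CNR1 without control replicate 3 or sGC replicate 4), 0 to 1 in F3 (MGLL without sGC replicate 6), 0 to 1 for F2 against F1 (CNR1 without F1 sGC replicate 4) and 0 to 2 for F3 against F1. There CNR1 passed without F1 control replicate 3, F1 sGC replicate 4 (with ABHD6), F3 control replicate 6, F3 sGC replicate 1 or F3 sGC replicate 6. In control libraries it gave 5 to 6 from F1 to F2 (MGLL without F1 control replicate 5) and 4 to 5 from F2 to F3 (NAPEPLD without F3 control replicate 1).

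Signs turned for small values. In F1 FAAH was 0.0022 with DESeq2, 0.00134 with its size factors in edgeR, 0.0032 with no filter and 0.0050 with all generations fitted together. Without libraries 32 to 36, F1 values were 0.066 for FAAH, 0.0079 for DAGLA and 0.037 for CNRIP1, and NAPEPLD in F2 was -0.013. In the same setting the effect in F2 against F1 was 0.050 for MGLL, -0.029 for FAAH, -0.0016 for GDPD1 and 0.021 for GNAI2. Without F2 libraries the effect in F3 against F1 was 0.0015 for ABHD12. None of these had passed the test.

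With single libraries left out, these values changed sign. In F1 the value ran for FAAH from -0.036 to 0.0469, ABHD6 from -0.00307 to 0.0971 and CNRIP1 from -0.0636 to 0.0133. In F2 the value ran for CNR1 from -0.0192 to 0.00818, NAPEPLD from -0.0142 to 0.047, ABHD12 from -0.021 to 0.023 and GRM5 from -0.0439 to 0.0186. In F3 the value ran for DAGLA from -0.00282 to 0.063 and NAPEPLD from -0.0118 to 0.0711. The effect in F2 against F1 ran for MGLL from -0.13 to 0.0271, FAAH from -0.0171 to 0.0686, CNRIP1 from -0.0486 to 0.0252 and GNAI2 from -0.046 to 0.000693. That in F3 against F1 ran for ABHD12 from -0.0476 to 0.0271. That in F3 against F2 ran for FAAH from -0.00926 to 0.0659 and NAPEPLD from -0.0324 to 0.0644. In F3 against F1 controls the value ran for DAGLA from -0.0355 to 0.0117 and FAAH from -0.00454 to 0.0476. Between F3 and F2 controls the value ran for MGLL from -0.0184 to 0.0267.

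Genes called in F1 numbered 237 against 598 with the likelihood ratio test, 658 with DESeq2, 852 with all generations fitted together and 97 without libraries 32 to 36, and in F3 573 against 937 with DESeq2, 317 without libraries 32 to 36 and 334 with all generations fitted together. For the effect in F3 against F1 there were 0 against 431 without libraries 32 to 36, and in F2 against F1 33 against 168 with the likelihood ratio test, 202 with DESeq2, 66 with no filter and 68 without libraries 32 to 36.

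Same-numbered libraries did not deviate together (correlations between -0.362 and 0.288, 3 of 17 over 0.1, own number best in 1 of 17). With a replicate block no member count changed (0 in each sGC comparison, 5 and 4 in control libraries from F1 to F2 and F2 to F3), the share of all genes called went from 2.08% to 0.598% in F1 and from 5.04% to 1.51% in F3, DAGLA in F3 became -0.0030 and CNRIP1 in F2 against F1 became 0.00804. Adjusted p-values under the block were 0.0762 for GNAQ in F1, 0.1202 for GDPD1 and 0.0955 for GNAI2 in F3, and 0.0987 for GNAQ in F2 against F1, where all genes called went from 33 to 4.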
